A study of Mus musculus with 16 samples.

Results

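The transcription factors that set the choice between the CD4 and the CD8 T cell lineage were followed in naive T cells sorted by lineage and by surface CD5. The 7 genes Zbtb7b, Gata3, Runx1, Runx3, Cbfb, Patz1 and Myb were taken by name from a table of 24421 genes, as known factors of that choice. All 7 were present, and all 7 were among the 13554 genes that passed the filter on low counts. RNA sequencing counted gene expression in 16 libraries of sorted lymph node cells from C57BL/6 mice, with 4 biological replicates in each of 4 groups. Every group held naive cells without CD25, with high CD62L and low CD44. The groups were CD4+ cells from the third with the lowest CD5 (CD4 CD5lo), CD4+ cells from the third with the highest (CD4 CD5hi), and the same fractions of CD8+ cells (CD8 CD5lo and CD8 CD5hi). CD5 is a surface receptor whose level on a naive T cell follows how strongly that cell recognises self ligands. No genotype or treatment separated the groups. The sources used here do not give the age or sex of the mice, nor whether each replicate was another animal. P-values therefore measure the spread between these libraries.

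In the thymus, cells that carry both coreceptors become either CD4 helper cells or CD8 cytotoxic cells. Zbtb7b encodes ThPOK, the zinc finger repressor that commits cells to the CD4 lineage, and GATA3 and MYB act before it in cells recognising class II MHC molecules. RUNX proteins bind DNA together with CBFβ, the subunit that Cbfb encodes. RUNX complexes silence Cd4 and Zbtb7b in CD8 cells, where RUNX3 is the main RUNX protein, while ThPOK restrains Runx3 in CD4 cells. PATZ1, also called MAZR, is a zinc finger factor that takes part in keeping Zbtb7b silent. The question asked of the data was how far these RNAs still differ between the lineages after the choice is made, and whether they differ between CD5 levels within a lineage.

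The members lie on different chromosomes of GRCm38 (GENCODE vM21, 1-based). Zbtb7b is at chr3:89377644-89394776 on the minus strand, Gata3 at chr2:9857078-9890034 minus, Runx1 at chr16:92601466-92826149 minus, and Runx3 at chr4:135120652-135177990 plus. Cbfb is at chr8:105170674-105217989 plus, Patz1 at chr11:3288874-3309083 plus, and Myb at chr10:21124935-21160984 minus. Runx3 and Zbtb7b act against each other in the lineage choice and each has 2 listed starts, so the bases before all 4 starts are shown for the RUNX motif, with the upstream start of Runx1 beside them. The sequences come from RefSeq windows on GRCm38.p6 with annotated exon bases left out, read 5′ to 3′ on the gene's strand. Capitals mark matches to TGTGGT or TGCGGT on either strand. The windows are Runx3 upstream start at chr4:135120448-135120644 (plus), Runx3 downstream start at chr4:135152295-135152495 (plus), Zbtb7b upstream start at chr3:89393379-89393476 (minus), Zbtb7b downstream start at chr3:89387672-89387921 (minus) and Runx1 upstream start at chr16:92826150-92826324 (minus).
Runx3, upstream start: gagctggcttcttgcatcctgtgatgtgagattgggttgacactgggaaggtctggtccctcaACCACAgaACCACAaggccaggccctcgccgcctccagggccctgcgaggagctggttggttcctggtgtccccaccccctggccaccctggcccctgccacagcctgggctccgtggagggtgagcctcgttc
Runx3, downstream start: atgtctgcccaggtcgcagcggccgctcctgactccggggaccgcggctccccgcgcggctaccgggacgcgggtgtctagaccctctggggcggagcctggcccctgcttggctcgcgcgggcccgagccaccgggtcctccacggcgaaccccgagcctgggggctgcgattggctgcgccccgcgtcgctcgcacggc
Zbtb7b, upstream start: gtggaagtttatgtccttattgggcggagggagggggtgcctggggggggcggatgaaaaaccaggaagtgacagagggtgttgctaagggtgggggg
Zbtb7b, downstream start: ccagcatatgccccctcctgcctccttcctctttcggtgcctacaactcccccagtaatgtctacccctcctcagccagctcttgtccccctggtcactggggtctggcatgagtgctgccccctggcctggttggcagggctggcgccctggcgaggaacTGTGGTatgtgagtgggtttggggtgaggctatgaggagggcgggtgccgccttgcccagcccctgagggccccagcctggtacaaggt
Runx1, upstream start: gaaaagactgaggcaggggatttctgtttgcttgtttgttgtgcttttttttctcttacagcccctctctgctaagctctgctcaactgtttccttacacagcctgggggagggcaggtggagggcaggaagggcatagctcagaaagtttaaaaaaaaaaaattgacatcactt

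The upstream Runx3 window held 2 matches, both on the opposite strand, at bases -134 to -129 and -126 to -121 from the start. Matches and CpG sites were counted over the full 250 bases before each start, with the annotated exon bases that the printed sequences leave out. The downstream Runx3 start had 0 matches and 38 CpG sites, against 8 CpG sites at the upstream one. The downstream Zbtb7b start had 1 match, at -89 to -84, and the upstream one had 0. Of 32817 RefSeq windows of the same 250 bases, 18.6% held at least 1 match, and the other windows of the 7 members held 0. A GATA motif (AGATAA or TGATAA, either strand) was in 16.6% of all windows and in 0 of the members' windows. Counts were deposited per gene, so RNA from the separate starts of Runx3 or Zbtb7b was not told apart.

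Library totals ran from 71447252 to 93418385 counts. Levels are given as counts per 1000000 counts (CPM) after scaling of the libraries, and changes as log2 with their standard error from edgeR's quasi-likelihood test over all genes, with Benjamini-Hochberg adjusted p under 0.05 as the threshold. T cell markers summed to 3930 CPM or more in every library, and Cd4, Cd8a and Cd8b1 matched each library's lineage label. Beside these, 3 libraries stood apart by B cell genes. The 14 B cell markers, all detected, summed to 385 CPM in CD4 CD5lo replicate 3, to 606 in CD8 CD5lo replicate 3 and to 985 in CD8 CD5hi replicate 4. The lowest sums were 21.4 and 10.9 CPM in the CD4 groups of low and high CD5, and 37.3 and 34.3 in the CD8 groups; CD4 CD5hi reached 38.97. For the 7 factors, results that move without these 3 libraries are given both ways.

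Between the lineages, 6 of the 7 factors differed at low CD5 and 5 at high CD5 in the fit without replicate numbers. In CD8 cells at low CD5, Zbtb7b, Gata3, Runx1 and Patz1 were lower and Runx3 and Myb higher. The 4 lower and 2 higher genes stand beside 9.44% of all tested genes called lower and 10.0% called higher. At high CD5 the same 4 genes were lower and Runx3 was higher, where 14.8% of all genes were called lower and 15.6% higher. Same-numbered libraries of the lineages varied together. With the replicate number in the fit, Myb was called higher at high CD5 as well. The calls over all genes then rose from 2638 to 4345 at low CD5 and from 4111 to 6336 at high CD5. The plot of CPM by library shows the values behind these calls. These are bulk samples, in which fewer cells of a type and less RNA per cell cannot be told apart.

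**Figure D1:**
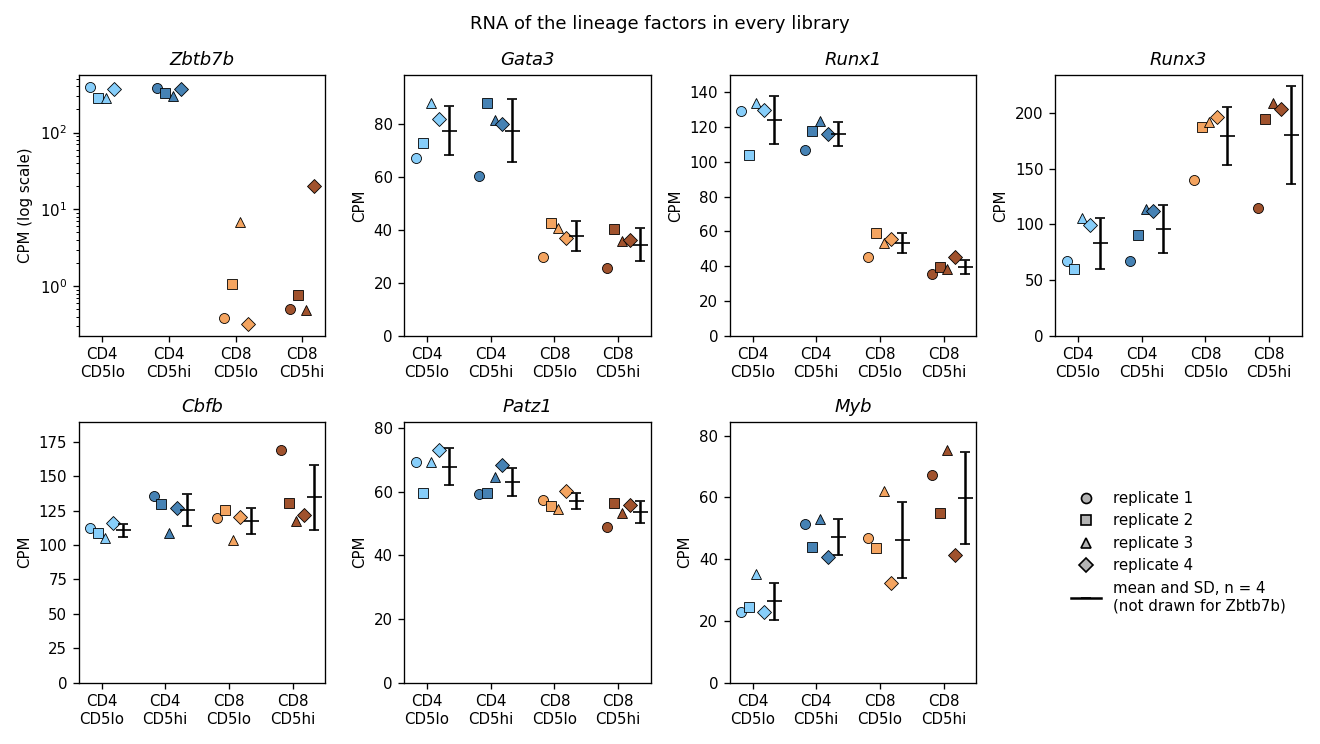
CPM of each lineage factor in the 16 libraries, by group, with the marker shape giving the replicate number. Bars give the mean and SD of 4 libraries and are not drawn for Zbtb7b. The axis of Zbtb7b is logarithmic and the others start at 0. Zbtb7b in CD8 cells ranged from 0.323 to 20.4 CPM against at least 281 in CD4 cells, and Runx1 and Gata3 did not overlap between lineages.

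Zbtb7b, the CD4 commitment factor, showed the widest separation. In CD4 CD5lo cells it stood at 395, 283, 281 and 366 CPM in replicates 1 to 4, and in CD4 CD5hi cells at 376, 327, 302 and 367. In CD8 CD5lo cells the same replicates had 0.383, 1.08, 6.85 and 0.323 CPM, and in CD8 CD5hi cells 0.509, 0.773, 0.485 and 20.4. The groups of different lineage did not overlap, and 6 of the 8 CD8 libraries held only 29 to 92 counts of the gene. The log2 change from CD4 to CD8 was -7.30 ± 1.23 at low CD5 (edgeR adjusted p = 0.000377) and -5.96 ± 1.15 at high CD5 (adjusted p = 0.000866).

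The other 2 CD8 libraries, CD8 CD5lo replicate 3 and CD8 CD5hi replicate 4, were those with the B cell genes, and other genes of CD4 cells were raised in them with Zbtb7b. Relative to the mean of CD4 cells at the same CD5 level, Zbtb7b was at 2.07% in the former and 5.95% in the latter, against 0.0975 to 0.325% in the remaining 6. Cd4, the coreceptor gene, was at 2.35% and 6.08% in them, against 0.0406 to 0.216% in the remaining 6. Cd40lg, the helper ligand for B cells, was at 2.50% and 8.27%, against 0.207 to 0.400% in the other CD8 CD5lo and 1.38 to 2.75% in the other CD8 CD5hi libraries. Without the 3 libraries, the Zbtb7b change was -9.19 ± 0.36 at low CD5 and -9.16 ± 0.35 at high CD5.

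**Figure D2:**
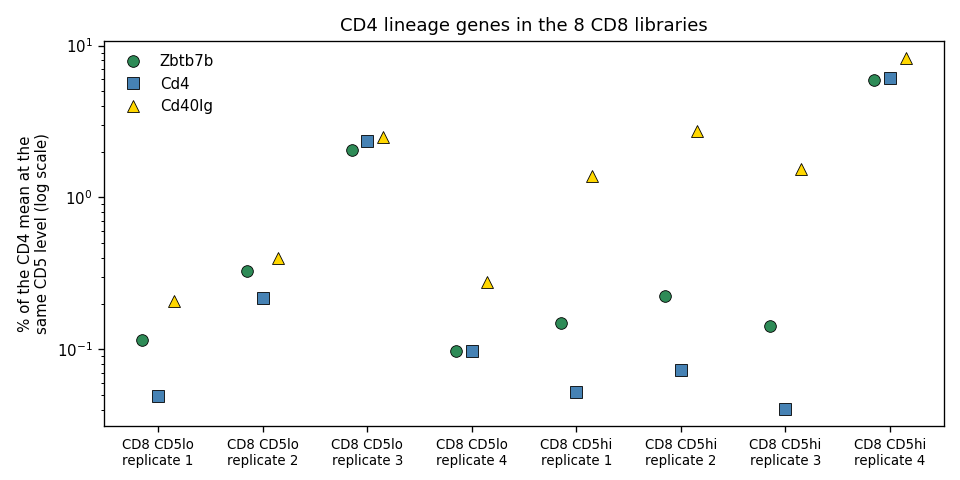
Zbtb7b, Cd4 and Cd40lg in each of the 8 CD8 libraries as a percent of the mean of the CD4 libraries at the same CD5 level, on a log axis. Zbtb7b and Cd4 lie at or under 0.325% in 6 libraries and at 2.07 to 6.08% in CD8 CD5lo replicate 3 and CD8 CD5hi replicate 4.

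Gata3, a factor upstream of Zbtb7b, was lower in CD8 cells but well detected in every library. CD4 CD5lo libraries had 67.3, 72.7, 88.0 and 81.9 CPM and CD4 CD5hi libraries 60.2, 87.8, 81.6 and 80.1. CD8 CD5lo libraries had 29.7, 42.7, 40.9 and 37.1 CPM and CD8 CD5hi libraries 25.6, 40.5, 35.7 and 36.0. Every CD8 library lay below every CD4 library, and replicate 1 was the lowest of its group in all 4 groups. Gata3 fell by 1.04 ± 0.15 on the log2 scale at low CD5 (edgeR adjusted p = 8.72e-05) and by 1.17 ± 0.15 at high CD5 (adjusted p = 2.14e-05).

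Among the RUNX genes, Runx1 and Runx3 moved in opposite directions. Runx1 measured 129.1, 104.0, 134 and 129.8 CPM in CD4 CD5lo replicates 1 to 4 and 107, 118, 124 and 116 in CD4 CD5hi. It measured 45.2, 58.9, 53.6 and 55.7 CPM in CD8 CD5lo and 35.5, 39.5, 38.3 and 45.3 in CD8 CD5hi. No CD8 library reached the lowest CD4 library. Runx1 was lower in CD8 cells by -1.22 ± 0.10 log2 at low CD5 (edgeR adjusted p = 1.8e-07) and by -1.55 ± 0.10 at high CD5 (adjusted p = 1.11e-08).

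Runx3, the RUNX gene of CD8 cells, was present in CD4 cells too, at 66.8, 60.2, 105 and 99.9 CPM in CD4 CD5lo and 67.2, 90.5, 114 and 112 in CD4 CD5hi. CD8 CD5lo libraries had 140.2, 188, 192 and 196 CPM and CD8 CD5hi libraries 115, 194, 209 and 203. The lineages did not overlap at either CD5 level, although CD8 CD5hi replicate 1, at 115 CPM, lay just above the highest CD4 CD5hi library at 114. The change to CD8 was 1.11 ± 0.22 log2 at low CD5 (edgeR adjusted p = 0.00164) and 0.91 ± 0.22 at high CD5 (adjusted p = 0.00486). Compared within a replicate number, the change was 0.87 to 1.64 at low and 0.77 to 1.10 at high CD5, positive in every pair. Replicate 1 was the lowest of its group in CD4 CD5hi, CD8 CD5lo and CD8 CD5hi, and averaged -0.426 log2 from the group means over the 4 groups.

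**Figure D3:**
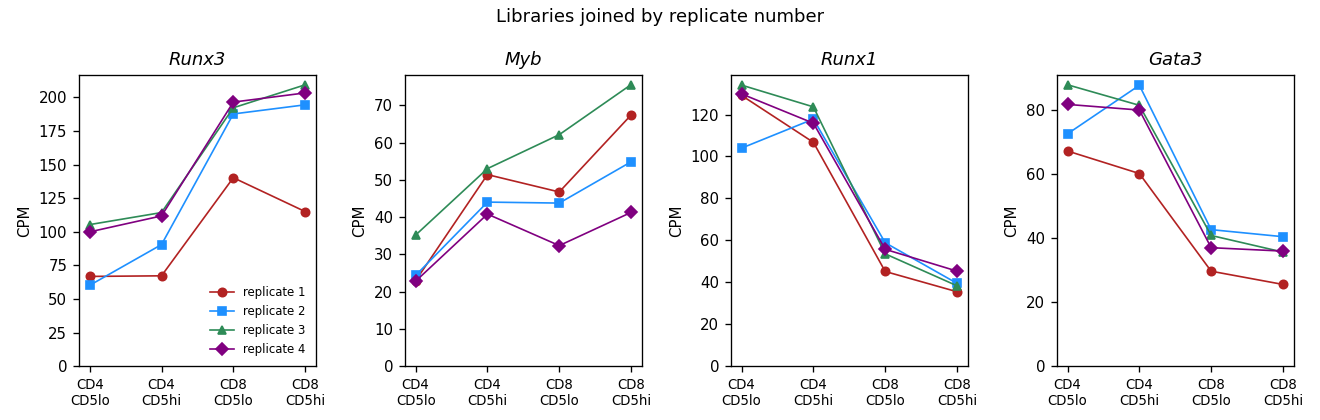
CPM of Runx3, Myb, Runx1 and Gata3 in the 4 groups, with lines joining libraries of the same replicate number; every axis starts at 0. Replicate 1 lies low for Runx3 and Gata3, and for Myb replicate 3 is the highest of every group and replicate 4 the lowest.

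Cbfb, the shared DNA-binding partner, did not pass the threshold between the lineages. CD4 CD5lo libraries had 112, 109, 105 and 116 CPM and CD4 CD5hi libraries 136, 129.98, 109 and 127. CD8 CD5lo libraries had 119.9, 126, 103 and 120.4 CPM and CD8 CD5hi libraries 169, 130.3, 117 and 122. The ranges of the lineages overlapped at either CD5 level. The log2 difference between CD8 and CD4 was 0.08 at low CD5 (95% interval -0.14 to 0.31, edgeR adjusted p = 0.683) and 0.10 at high CD5 (-0.12 to 0.32, adjusted p = 0.5).

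To compare levels between genes, CPM was divided by exon length (RPKM, here CPM per kilobase of all annotated exons). In CD4 CD5lo cells Zbtb7b led with 59.2 ± 10.4 RPKM (SD, n = 4), followed by Cbfb at 31.8 ± 1.35. Then came Gata3 (19.5), Runx3 (16.6), Patz1 (11.5) and Runx1 (10.3), where only neighbours in that order overlapped. Myb was last at 2.95. CD4 CD5hi cells had the same order of means, and there Runx3 and Patz1 no longer overlapped. In CD8 CD5lo cells Runx3 (35.8 ± 5.23) and Cbfb (33.7 ± 2.77) led without separating from each other, then Patz1 (9.66) and Gata3 (9.45) overlapped, Myb (5.18) and Runx1 (4.44) overlapped, and Zbtb7b was last at 0.386. CD8 CD5hi cells had Cbfb at 38.7, Runx3 at 36.1, Patz1 at 9.08, Gata3 at 8.66, Myb at 6.69, Runx1 at 3.30 and Zbtb7b at 0.990. There Cbfb overlapped Runx3, and Gata3 overlapped both Patz1 and Myb. Dividing by the longest transcript instead changed the order of neighbours among Runx1, Runx3, Patz1, Gata3 and Myb.

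Runx3 made up most of the RUNX RNA per length in all groups. Its share of the summed RPKM of Runx1, Runx2 and Runx3 was 60.8% ± 4.91 (SD, n = 4) and 65.8% ± 4.39 in CD4 cells of low and high CD5. It was 87.2% ± 1.05 and 88.0% ± 2.42 in the matching CD8 groups. With the longest transcript the shares were 49.5, 54.9, 81.9 and 83.7%, so that Runx3 no longer held most of the sum in CD4 CD5lo. On either length the lowest CD8 share lay above the highest CD4 share. The summed RPKM of the 3 genes was 27.0 ± 5.49 and 28.9 ± 4.90 in the CD4 groups and 41.0 ± 5.65 and 40.8 ± 9.13 in the CD8 groups, low and high CD5 in turn. Replicate 1 of the CD8 groups, at 32.6 and 27.2, lay within the range of the CD4 libraries (20.7 to 33.2), and the other 6 CD8 libraries lay above it.

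**Figure D4:**
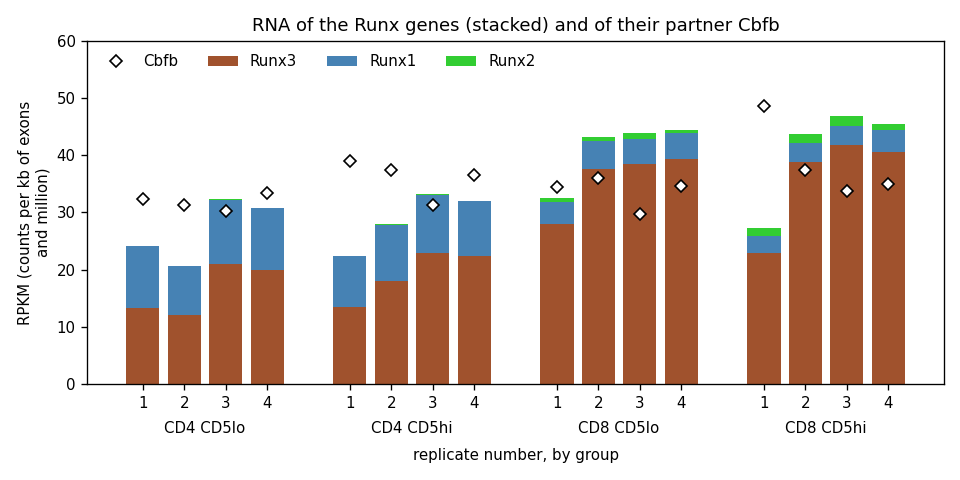
RPKM of Runx3, Runx1 and Runx2 stacked for each library, with Cbfb as open diamonds; libraries are ordered by group and replicate number and the axis starts at 0. The Runx3 part is 60.8% and 65.8% of the stack on average in the CD4 groups and 87.2% and 88.0% in the CD8 groups.

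Patz1, the repressor of Zbtb7b expression, was slightly lower in CD8 cells. CD4 CD5lo libraries had 69.4, 59.6, 69.4 and 73.3 CPM and CD4 CD5hi libraries 59.3, 59.6, 64.8 and 68.4. CD8 CD5lo libraries had 57.6, 55.6, 54.7 and 60.3 CPM and CD8 CD5hi libraries 48.9, 56.4, 53.3 and 55.9. The lineages overlapped at low CD5 and not at high CD5. The change was -0.25 ± 0.08 log2 at low CD5 (edgeR adjusted p = 0.0269) and -0.23 ± 0.08 at high CD5 (adjusted p = 0.0282).

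In the fit without replicate numbers these Patz1 calls depended on single libraries. Both calls held with the replicate number in the fit over all libraries. Same-numbered libraries gave -0.10 to -0.34 log2 at low and -0.08 to -0.29 at high CD5, negative in every pair. The losses that follow are from the fit without replicate numbers unless stated. At low CD5 the call was lost without CD4 CD5lo replicate 1 (adjusted p = 0.067), 3 (0.0677) or 4 (0.0965) and without CD8 CD5lo replicate 1 (0.0535), 2 (0.0819) or 3 (0.0793). At high CD5 it was lost without CD4 CD5hi replicate 3 (0.097) or 4 (0.112), CD8 CD5lo replicate 2 (0.0523) and CD8 CD5hi replicate 1 (0.0921) or 3 (0.079). Without the 3 libraries with B cell genes the adjusted p was 0.171 at low and 0.0647 at high CD5. The call was also lost at low CD5 without these libraries and with the replicate number in the fit (0.0535), and at high CD5 in a fit of the 2 groups alone (0.0753). Of the exonic bases of Patz1, 10.2% are shared with Gm12592 on the opposite strand, and the sources used here do not say whether reads were counted by strand.

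Myb, a factor that promotes Gata3 and CD4 differentiation in the thymus, was lowest in CD4 CD5lo cells. It measured 23.0, 24.4, 35.2 and 22.8 CPM there, and 51.4, 44.0, 53.0 and 40.8 in CD4 CD5hi. CD8 CD5lo libraries had 46.7, 43.8, 62.1 and 32.4 CPM and CD8 CD5hi libraries 67.4, 54.8, 75.5 and 41.3. The CD4 groups did not overlap, while the CD8 groups overlapped each other. At low CD5 Myb was higher in CD8 cells by 0.81 ± 0.21 log2 (edgeR adjusted p = 0.00971), with overlapping ranges.

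At high CD5 the Myb difference between lineages was 0.34 ± 0.20 log2 (95% interval -0.10 to 0.77, edgeR adjusted p = 0.238). With the replicate number in the fit it was 0.31 ± 0.10 and passed the threshold (adjusted p = 0.0163). It also passed without the 3 libraries with B cell genes (0.50, adjusted p = 0.0152). Of Myb's exonic bases, 6.26% are shared with Gm26577 on the opposite strand, and the members other than Myb and Patz1 share at most 3.9% with any gene.

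Within CD4 cells, Myb was the 1 factor of 7 that passed the threshold between CD5 levels, and it rose. Over all genes 2.68% were called higher and 1.40% lower in CD4 CD5hi. The Myb change was 0.85 ± 0.21 log2 (edgeR adjusted p = 0.0273), and the same-numbered pairs gave 1.16, 0.85, 0.59 and 0.84. With the replicate number in the fit the value was 0.86 ± 0.10 (adjusted p = 3.56e-05), and the calls over all genes rose from 553 to 1312. The call without that term was lost when CD4 CD5lo replicate 1 (adjusted p = 0.0931), 2 (0.0835) or 4 (0.0975), or CD4 CD5hi replicate 1 (0.0797), 2 (0.0516) or 3 (0.0842), was left out. Without the 3 libraries with B cell genes it was 1.02 ± 0.14 (adjusted p = 0.000673). Regulatory T cell markers moved with it, summing to 73.2 to 94.5 CPM in CD4 CD5lo and 118 to 142 in CD4 CD5hi, and 4 of these 6 genes were called higher. Foxp3, which defines regulatory T cells, averaged 4.96 and 17.4 CPM. Their part in the Myb change was not tested.

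The other 6 factors did not pass the threshold between CD5 levels in CD4 cells. Their log2 differences were 0.21 for Runx3 (95% interval -0.26 to 0.67), 0.18 for Cbfb (-0.04 to 0.40), -0.10 for Runx1 (-0.31 to 0.11), -0.11 for Patz1 (-0.27 to 0.05) and -0.00025 for Gata3 (-0.32 to 0.32). For Zbtb7b the difference was 0.05 with a wide interval of -1.89 to 1.99. Its spread in that fit is shared with the CD8 groups, and a fit of the CD4 groups alone gave 0.05 ± 0.12 (edgeR adjusted p = 0.975).

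Within CD8 cells, Runx1 was the 1 factor of 7 that passed the threshold between CD5 levels without replicate numbers in the fit, and it fell. With the replicate number in the fit Myb passed as well, and the calls over all genes rose from 1282 to 3390. Without that term 5.95% of all genes were called higher and 3.51% lower in CD8 CD5hi. Runx1 fell by 0.43 ± 0.10 on the log2 scale (edgeR adjusted p = 0.012), and the same-numbered libraries differed by -0.35, -0.58, -0.48 and -0.30. The ranges, 35.5 to 45.3 CPM at high and 45.2 to 58.9 at low CD5, overlapped by their edges alone. The value of 45.3 was that of CD8 CD5hi replicate 4, a library with B cell genes. Without this library the change was -0.50. Without CD8 CD5lo replicate 2 the adjusted p was 0.0537.

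Without replicate numbers in the fit, Myb did not pass the threshold in CD8 cells, with a log2 difference of 0.37 (95% interval -0.06 to 0.80, edgeR adjusted p = 0.307). Same-numbered libraries gave 0.53, 0.33, 0.28 and 0.35. With the replicate number in the fit the Myb difference was 0.37 and passed the threshold. Without the 3 libraries with B cell genes it passed the threshold, at 0.70 ± 0.15 (adjusted p = 0.00811). The remaining factors did not pass, with 0.01 for Runx3 (-0.45 to 0.47), 0.20 for Cbfb (-0.02 to 0.42), -0.13 for Gata3 (-0.45 to 0.19) and -0.09 for Patz1 (-0.25 to 0.07). Zbtb7b gave 1.39 (-0.83 to 3.60) over all libraries, -1.83 without CD8 CD5hi replicate 4 and 0.01 ± 0.37 without the 3 libraries.

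**Figure D5:**
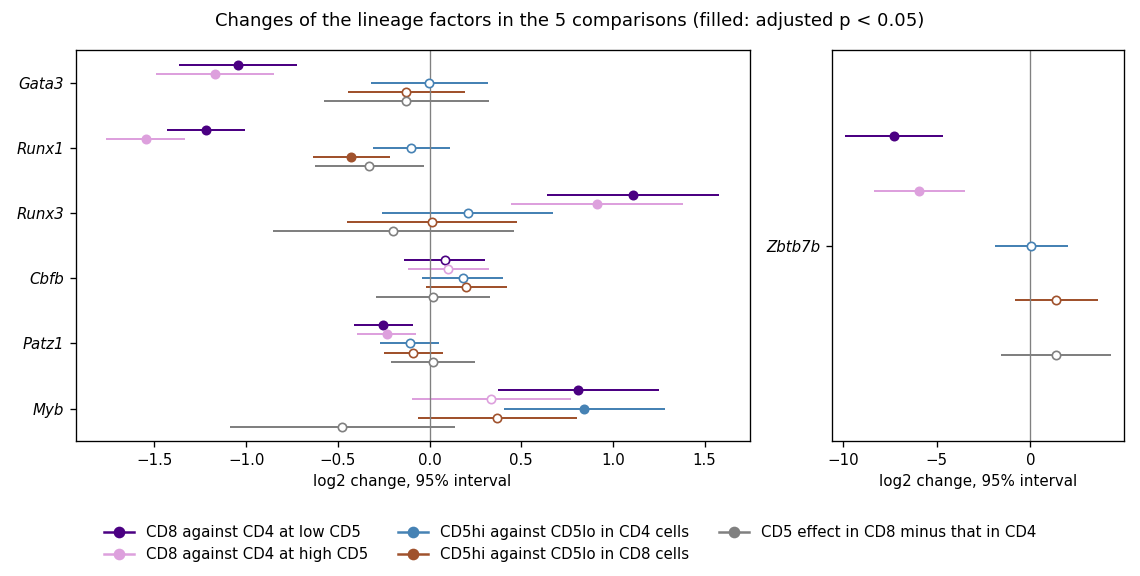
Log2 changes of the 7 factors in the 5 comparisons with their 95% intervals, filled where the adjusted p was under 0.05; Zbtb7b has its own axis. The lineage changes of Runx1 (-1.22 and -1.55) and Runx3 (1.11 and 0.91) lie on opposite sides of 0, and the CD5 comparisons have 1 filled point each, Myb in CD4 and Runx1 in CD8 cells.

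Whether the CD5 difference itself depended on lineage was tested as an interaction. None of the 7 factors passed in edgeR (0 called), where 0.177% of all genes were called higher and 0.133% lower. Limma voom also called 0, with 41 calls over all genes. DESeq2, which gave no value for Zbtb7b, called 0 of the other factors, with 207 calls over all genes. At an unadjusted edgeR p under 0.05 there was 1, Runx1, with a difference of the differences of -0.33 ± 0.14 log2 (adjusted p = 0.579). At that unadjusted threshold 601 of all 13554 genes tested were higher and 420 lower. For Myb it was -0.47 (95% interval -1.09 to 0.14, adjusted p = 0.821). The Myb call in CD4 cells and the Runx1 call in CD8 cells were therefore not shown to be particular to a lineage.

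The coreceptor genes, targets of these factors, separated the lineages, which was set in advance by sorting CD4+ and CD8+ cells. Cd4 averaged 1159 and 1023 CPM in CD4 CD5lo and CD5hi, Cd8a 1979 and 1604 in CD8 CD5lo and CD5hi, and Cd8b1 1329 and 962.

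Of 40 other regulators of the lineage choice, 39 were tested. In CD8 cells 5 were higher and 8 lower at low CD5 (median log2 -0.03), and 4 higher and 13 lower at high CD5 (median -0.12), where the medians of all genes were 0.0002 and 0.01. Over all genes 10.0% were higher and 9.44% lower at low CD5, and 15.6% and 14.8% at high CD5. Runx2, the RUNX gene best known from bone, rose by 3.25 and 4.13 log2 at low and high CD5, from 0.713 CPM in each CD4 group to 6.82 and 12.6 in the CD8 groups. Tcf12, an E protein, was higher by 0.37 and 0.42, and Tle4, a corepressor, by 0.29 and 0.38. Zbtb7a, the close relative of Zbtb7b, was higher by 0.53 at low CD5, and the corepressor gene Tle1 by 0.30 at high CD5. Without the 3 libraries with B cell genes these last calls were lost (edgeR adjusted p = 0.052 for Zbtb7a and 0.0672 for Tle1).

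Prdm1, which encodes the repressor Blimp-1, had the deepest change among the lower regulators named here, at -1.79 and -2.62 log2. Ets1 (-0.43 and -0.58) and Bcl11b (-0.52 and -0.88), T cell identity factors, were lower at both CD5 levels. So were Tcf7, the gene of TCF-1 (-0.41 and -0.56), and Stat5b, a cytokine signal transducer (-0.30 and -0.48). With CD5 in CD4 cells 4 of the 39 regulators rose and 2 fell, beside 2.68% and 1.40% of all genes. Those higher were Tox (0.57), a factor needed for CD4 development, Bcl6 (0.66), Id2 (0.71) and Ets1 (0.27), and those lower were Irf1 (-0.35) and Tle1 (-0.36). Without the 3 libraries the calls of Id2 (edgeR adjusted p = 0.0648), Ets1 (0.124), Irf1 (0.087) and Tle1 (0.169) were lost. In CD8 cells 3 rose and 2 fell with CD5, beside 5.95% and 3.51% of all genes, namely Tox (0.35), Id3 (0.79) and Runx2 (0.88), against Prdm1 (-1.53) and Bcl11b (-0.51). The Id3 call was lost without the 3 libraries (adjusted p = 0.0571). The Runx2 call in CD8 cells was at the threshold (edgeR adjusted p = 0.0497) and was lost in 11 of 16 fits that left out 1 library.

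Of 18 genes of the helper programme, 8 were lower and 3 higher in CD8 cells at low CD5 (median log2 -0.52). At high CD5 9 were lower and 1 higher (median -0.95). Over all genes 9.44% were lower and 10.0% higher at low CD5, and 14.8% and 15.6% at high CD5, with medians of 0.0002 and 0.01. The list includes Cd4, the gene of a coreceptor used in the sort. Trat1, a T cell receptor adaptor, changed by -1.80 and -1.74, Tbc1d4 by -1.69 and -2.69 and St8sia1 by -0.76 and -1.27 log2 at low and high CD5. Cd40lg changed by -6.93 and -4.84, with -8.46 at low CD5 without the 3 libraries with B cell genes and -8.39 without CD8 CD5lo replicate 3 alone. Izumo1r, the folate receptor of regulatory and anergic CD4 cells, changed by -0.58 and -2.00. Against the list's name, the chemokine receptor genes Ccr4 (1.77, low CD5) and Cxcr5 (1.28 and 1.58) and the cytokine receptor gene Il6st (0.29, low CD5) were higher in CD8 cells. Ccr4 was low, averaging 0.515 CPM in CD4 and 1.76 in CD8 cells at low CD5, and 1.07 and 0.977 at high CD5. The low-CD5 Cxcr5 call was lost in 3 of 16 fits that left out 1 library. Without CD8 CD5lo replicate 3 its edgeR adjusted p was 0.0669, and without the 3 libraries with B cell genes 0.00265. The Il6st call was at the threshold (edgeR adjusted p = 0.0499). It was lost in 12 of 16 fits that left out 1 library and in 5 of 9 other settings. With CD5 in CD4 cells 5 rose and 0 fell in edgeR, beside 2.68% and 1.40% of all genes. At an unadjusted p under 0.05 there were 8 higher and 1 lower, beside 972 and 712 of all 13554 genes tested. Among those called higher were Izumo1r by 2.43, Il6st by 0.64, Tnfrsf4 by 0.82 and Arap3 by 0.85. Regulatory T cell markers, given above beside Myb, moved with these genes, and their part was not tested. In CD8 cells these markers summed to 69.4 to 104 CPM at low and 114 to 136 at high CD5. There Izumo1r (1.01) and Arap3 (0.69) rose with CD5 and St8sia1 fell by 0.71, beside 5.95% and 3.51% of all genes. In the interaction 0 rose and 2 fell, Izumo1r (-1.42) and Tnfrsf4 (-1.10), beside 0.177% and 0.133% of all genes. The Tnfrsf4 call there was lost in 14 of 16 fits that left out 1 library (edgeR adjusted p up to 0.108).

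Of 20 genes of the cytotoxic programme 19 were tested. The list includes Cd8a and Cd8b1, genes of the CD8 coreceptor used in the sort. Over all genes 10.0% were higher and 9.44% lower in CD8 cells at low CD5, and 15.6% and 14.8% at high CD5. Of the list, 16 were higher and 1 lower in CD8 cells at low CD5 (median log2 3.15), with 17 and 1 at high CD5 (median 4.66). Those with the smallest adjusted p were Cd8b1 (5.56 and 6.91), Itgae (8.03 and 8.19), which encodes the integrin CD103, and the cytotoxic granule genes Cst7 (3.15 and 3.20) and Ctsw (2.63 and 2.69). The exception was Fasl, the gene of a death ligand, at -4.68 and -4.76. It averaged 8.36 and 8.64 CPM in the CD4 groups and 0.329 and 0.316 in the CD8 groups. With CD5 in CD4 cells 3 rose and 6 fell, beside 2.68% and 1.40% of all genes. Il2rb (1.92), Eomes (1.24) and Ctsw (0.53) rose, and those that fell included Cd8b1 (-1.82), Gzma (-3.03), Crtam (-0.61) and Prf1 (-0.98). Summed natural killer cell markers, which include Gzma, went from a median of 2.33 to 0.659 CPM, and summed CD8 T cell markers, Cd8a and Cd8b1, from 32.6 to 9.32. Dntt, a thymocyte gene, averaged 5.05 CPM in CD4 CD5lo and 0.803 in CD4 CD5hi. The 5 thymocyte markers, which include Dntt, summed to medians of 45.4 and 42.3 CPM in those groups, with overlapping ranges. Of these 5 genes 2 passed the filter on low counts, and 1 was called lower in CD4 CD5hi. The part of other cells in these changes was not tested. In CD8 cells Xcl1 (3.43), Tbx21 (2.76), Eomes (1.41) and Ctsw (0.58) rose and Cd8b1 fell by 0.47, beside 5.95% and 3.51% of all genes.

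The genes most like each member were ranked by Pearson's r of log2 CPM over the 16 libraries, among 8930 genes with at least 5 CPM on average. These libraries share groups and replicate numbers, so the values describe the pattern and carry no test. Cd4 was most like Zbtb7b (r = 0.994), before Aldh2 (0.983) and Lgmn (0.981). Runx1 was followed by Pvr (0.987), Acvrl1 (0.987) and Lpcat1 (0.985), and Gata3 by Mical3 (0.986), Bag3 (0.982) and Ranbp10 (0.981). Runx3 was followed by Gatad2a (0.979), which averaged 146 CPM in each CD4 group and 218 and 224 in the CD8 groups, then by Galnt2 (0.976) and Ahdc1 (0.975). Values were lower for Patz1, with Mbd6 (0.943), Rnpepl1 (0.942) and Rnf40 (0.936), and for Cbfb, with Dnajc10 (0.938), Ywhab (0.933) and Arpc5 (0.923). Myb had the lowest leading value, with Jak1 (0.899), Lysmd2 (0.897) and Cdk17 (0.883).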

How the data were processed

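RNA of 16 libraries was analysed from the deposited counts, a table of whole reads per gene that the authors made with no normalisation visible in the values. Per the labels' protocols, 2 kits were in use, TruSeq RNA v2 and TruSeq stranded mRNA. The sources do not say which kit a library had, or whether reads were counted by strand. The submitters' processing notes name featureCounts 1.4.6-p3, STAR 2.5.2a and DESeq2, and the build mm10. Groups came from the labels. Technical replicates, 2 a sample by the design text, were not compared, since the table has 1 column a sample. Names turned into dates (27, with 0.263% of counts) were kept as given. Low counts (1 to 9) were mostly even, at 73.9 to 80.5% a library, and high counts (from 1000) were not, at 49.2 to 51.3%, so halved counts were added as an alternative.

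Tests were made in R 4.3.3 with edgeR 4.0.16, using TMM scaling and filterByExpr (a minimum count of 10 and a minimum total of 15). The model had a mean for each group over all libraries, which left 12 residual degrees of freedom. Quasi-likelihood F tests were two-sided and adjusted over 13554 genes within each of 5 comparisons. The SE is the log2 change over the square root of F. The procedure was tested on simulated data. Totals of 71447252 to 93418385 counts limit the precision of low genes. CPM divided by exon length in GENCODE vM21 gave RPKM.

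Members, lists and the rule for naming genes were chosen with earlier results of these data known. The rule took all members, the 4 list genes with the smallest adjusted p each way per comparison, and the 3 genes most like each member. Fasl and Gatad2a levels, Foxp3, Dntt, Cd40lg in CD8 libraries and Xist were chosen after their values were seen. Alternatives were DESeq2 size factors, no filter, DESeq2 1.42.0, limma voom (limma 3.58.1), the 2 groups alone, the replicate number as a block, leaving out each library and the longest transcript as length; leaving out the 3 libraries with B cell genes, with and without the block, and halving were added after seeing the data. Whether replicate numbers pair the samples was checked by correlating deviations from the group means over genes: the lowest value over the 4 numbers was 0.203 between lineages at low CD5, 0.235 at high CD5, 0.251 between CD5 levels of CD4 cells, and -0.0401 between those of CD8 cells. The numbers were therefore taken as pairs in the first 3 comparisons, which would tie the CD8 groups to each other as well. In CD8 cells replicates 1 to 4 gave 0.562, 0.255, 0.0274 and -0.0401. In each of replicates 3 and 4, 1 CD8 library had the B cell genes. For the factors, calls between CD5 levels of CD8 cells are therefore given with and without the replicate number. Xist, an RNA of female cells, was at 225 CPM or more in replicate 4 of every group and at most 0.35 in the others. Sex thus went with the replicate number, in the CD8 groups as well. RefSeq start windows were matched by symbol for all 7 members.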

Additional observations from a re-analysis of the deposited data

Results flagged for a closer look

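In 6 of the 28 sets of 4 libraries (7 genes in 4 groups) the highest or lowest library was set apart from the other 3 by more than Dixon's 95% critical value, which chance passes in about 1 of 20 sets. Zbtb7b was at 6.85 CPM in CD8 CD5lo replicate 3, where the next library had 1.08, and at 20.4 CPM in CD8 CD5hi replicate 4, where the next had 0.773. Cd4 and the B cell markers were raised in the same libraries. Runx3 was at 140.2 CPM in CD8 CD5lo replicate 1, below 188 in the next library, and at 115 in CD8 CD5hi replicate 1, below 194. Runx1 was at 104 CPM in CD4 CD5lo replicate 2, below 129.1. Myb was at 35.2 CPM in CD4 CD5lo replicate 3, above 24.4, and the replicate numbered 3 was the highest for Myb in the other 3 groups too.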

How the results depend on the processing

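Between lineages, the Zbtb7b, Runx1, Runx3 and Gata3 calls at either CD5 level and the Myb call at low CD5 kept their direction and side of the threshold under every alternative that gave a value (DESeq2 gave none for Zbtb7b). Leaving out 1 library at a time left 0 to 1 factors called with CD5 in CD4 cells and 0 to 1 in CD8 cells. In CD8 cells the count was 2 with the replicate block (Myb gained, 0.37 ± 0.10, edgeR adjusted p = 0.0116), 2 without the 3 libraries with B cell genes and 3 with both (Cbfb gained, 0.29, adjusted p = 0.0273); beyond the Myb calls named here and above, the block alone changed no member's call. Signs turned only for changes that had not passed the threshold. Runx3 in CD8 cells (CD5hi against CD5lo) was -0.0151 with voom, -0.01305 with the block, and -0.0372 with the block and without the 3 libraries. Without these libraries Zbtb7b in CD4 cells was -0.0206, Gata3 in CD4 cells 0.0677 (0.0240 with the block) and the Patz1 interaction -0.0173. With 1 library left out, the ranges that crossed 0 were -0.0151 to 0.18 for Cbfb between lineages at high CD5; -0.0207 to 0.15 for Zbtb7b and -0.0655 to 0.10 for Gata3 in CD4 cells; -1.83 to 3.21 for Zbtb7b, -0.0741 to 0.18 for Runx3 and -0.21 to 0.00012 for Gata3 in CD8 cells; and -1.88 to 3.16 for Zbtb7b, -0.10 to 0.0939 for Cbfb, -0.23 to 0.000604 for Gata3 and -0.0145 to 0.0811 for Patz1 in the interaction. Calls over all genes with CD5 in CD8 cells numbered 1282, 813 with those groups alone, 3390 with the block, 2937 with the block and without the 3 libraries, 811 without CD8 CD5lo replicate 4 and 763 without CD8 CD5hi replicate 2. In CD4 cells they numbered 1165 without the 3 libraries and with the block. In the interaction they numbered 42, 207 with DESeq2, 379 with the block, 129 without the 3 libraries (502 with the block) and 8 to 165 with 1 library left out, the extremes being without CD8 CD5lo replicate 2 and CD8 CD5hi replicate 4. Of 71 calls of list genes named, 56 held under every alternative run and 0 changed sign; those lost in some setting were Zbtb7a, Cxcr5 and Il6st at low CD5, Tle1 at high CD5, Id2, Ets1, Irf1, Tle1, Arap3, Eomes and Ctsw in CD4 cells, Id3, Runx2 and Arap3 in CD8 cells and Tnfrsf4 in the interaction. The cause was not tested.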
